A study of Mus musculus with 2 samples.

Results

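The proteasome genes described here are those whose symbols start with Psma, Psmb, Psmc, Psmd or Psme and that had at least 20 unique molecular identifiers (UMIs, tags that count single RNA molecules) over both libraries. The prefixes matched 45 symbols, and 43 passed the minimum, of 9066 genes that passed it among the 27998 in the files. The 43 were 5 immunoproteasome genes (Psmb8, Psmb9, Psmb10, Psme1 and Psme2), 31 genes of constitutive subunits and 7 others. The 7 others were the activators Psme3 and Psme4, the assembly chaperones Psmd5, Psmd9 and Psmd10, the retrogene Psme2b, which is a copy of Psme2, and Psmc3ip, which shares the prefix and is no subunit. Psmc3ip, with 23 UMIs, lay just inside the minimum. Psma8, a testis subunit, lay just outside it with 6 UMIs in the injured and 10 in the uninjured library, and Psmb11, the thymus subunit, had 1 and 0.

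The mice were Cx3cr1-CreER::Rosa26-tdTomato animals of the C57BL/6J background strain, their spinal cord cells were sorted by tdTomato fluorescence, and 1 library was made from injured and 1 from uninjured tissue. The injured cord was taken on day 5 after lysolecithin, a lipid that strips myelin from axons, and the uninjured cord came from age-matched controls. Both groups carried the transgenes and had received 2 injections of 1 mg 4-hydroxy-tamoxifen at postnatal week 4, which activate Cre in cells that express Cx3cr1, with dissection 4 weeks later. Cx3cr1 marks microglia and also other macrophages and monocytes, so the label does not tell these apart. The sources used here give neither the number of animals pooled per library nor their sex.

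Proteasomes degrade proteins tagged with ubiquitin. The 20S core holds rings of alpha subunits around rings of beta subunits, and 3 beta subunits carry the catalytic sites: Psmb5 the chymotrypsin-like, Psmb6 the caspase-like and Psmb7 the trypsin-like site. The 19S cap binds ubiquitin and unfolds substrates with its Psmc ATPases. Interferon induces Psmb8, Psmb9 and Psmb10, which take the places of Psmb5, Psmb6 and Psmb7 in newly built cores and so form the immunoproteasome, as well as Psme1 and Psme2, the alpha and beta subunits of the PA28 activator. Its peptides are loaded on MHC class I, and microglia express it more than neurons do.

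In the mouse genome (GRCm38), Psmb8 (chr17:34197721-34201454, plus strand) and Psmb9 (chr17:34181987-34187764, minus strand) lie in the MHC region beside the peptide transporter genes. The annotated spans of Psmb9 and Tap1 overlap by 212 bases on opposite strands, and the sources used here do not state whether counting used strand. Psme1 (chr14:55578123-55581529, plus strand) and Psme2 (chr14:55587441-55591113, minus strand) are neighbours, 5911 bases apart. Psmb10 lies at chr8:105935735-105938444, Psmb5 at chr14:54614119-54618022 and Psmb7 at chr2:38588036-38644087, all on the minus strand, and Psmb6 at chr11:70525367-70527858 on the plus strand.

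The RefSeq promoter windows (GRCm38.p6, 250 bases before to 50 bases after the start site) were searched on both strands for the letters of an interferon-stimulated response core (GAAA, then any 2 bases, then GAAA), a STAT site (TTCNNNGAA) and an antioxidant response core (TGACNNNGC). Of the 43 members, 37 had windows, 40 in number. A match to the first was in 4 members (Psmb3, Psmd4, Psmd9 and Psme1), 10% of the members' windows, and in 3.44% of all 32851 windows. The STAT letters were in 2 members (Psmb8 and Psmd2), 5% of the members' windows, and in 8.30% of all windows. The antioxidant letters were in 6 members (Psmb5, Psmb6, Psmc6, Psmd12, Psmd9 and Psme4), 15% of the members' windows, and in 12.4% of all windows. The windows of Psmb9, Psmb10 and Psme2 held no match, and Psmb7 had no window. Windows of 4 genes that the results turn on are shown because each holds 1 match, in capitals, and no match overlapped another. In Psmb8 (chr17:34197945-34198244, plus strand) the capitals mark the STAT letters, 97 bases before the start site. In Psme1 (chr14:55578244-55578543, plus strand) they mark the interferon-stimulated letters on the opposite strand, from base 10, counting the start site as base 1. In Psmb5 (chr14:54617946-54618245, minus strand) and Psmb6 (chr11:70525107-70525406, plus strand) they mark the antioxidant letters, 47 and 9 bases before the start site. A match is a description of the letters, not evidence of binding.
Psmb8: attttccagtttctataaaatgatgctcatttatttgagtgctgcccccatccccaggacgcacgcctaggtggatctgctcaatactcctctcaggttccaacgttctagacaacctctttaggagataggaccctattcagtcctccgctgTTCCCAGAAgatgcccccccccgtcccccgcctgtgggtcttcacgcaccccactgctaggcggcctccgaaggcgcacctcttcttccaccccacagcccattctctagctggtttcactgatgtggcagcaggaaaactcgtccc
Psme1: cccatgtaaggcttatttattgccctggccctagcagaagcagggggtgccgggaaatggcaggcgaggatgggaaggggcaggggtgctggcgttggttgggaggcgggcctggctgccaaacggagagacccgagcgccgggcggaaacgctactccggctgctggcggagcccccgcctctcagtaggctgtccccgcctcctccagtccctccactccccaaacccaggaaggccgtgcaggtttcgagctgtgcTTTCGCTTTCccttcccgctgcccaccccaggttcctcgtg
Psmb5: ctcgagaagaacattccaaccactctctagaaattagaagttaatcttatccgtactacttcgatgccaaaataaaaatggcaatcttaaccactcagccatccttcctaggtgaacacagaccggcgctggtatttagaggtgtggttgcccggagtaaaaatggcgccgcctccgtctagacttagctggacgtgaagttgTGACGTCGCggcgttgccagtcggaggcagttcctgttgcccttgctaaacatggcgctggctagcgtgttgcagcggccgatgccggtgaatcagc
Psmb6: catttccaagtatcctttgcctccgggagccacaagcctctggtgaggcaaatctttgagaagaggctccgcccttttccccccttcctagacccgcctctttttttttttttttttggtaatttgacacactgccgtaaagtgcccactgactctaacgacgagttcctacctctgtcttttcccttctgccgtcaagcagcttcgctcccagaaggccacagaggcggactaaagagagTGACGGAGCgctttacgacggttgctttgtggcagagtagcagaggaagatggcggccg

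The injured library held 577 cells and 3095511 UMIs, with a median of 4396 UMIs per cell, and the uninjured library 695 cells and 2093084 UMIs, with a median of 3003. No cell barcode was found in both libraries, a count of 0. All 8 microglia markers were detected in both. Monocyte markers summed to 182 CPM (UMIs of a gene, or of a gene list, scaled to a common library total) in injured and 10.99 CPM in uninjured cells, over 5 and 4 of 6 markers detected, with the defining marker Ly6c2 at 0 in both. Border macrophage markers summed to 128 CPM in injured and 69.8 CPM in uninjured cells, over 6 and 7 of 7 markers detected, with Cd163 at 0 in injured cells. Endothelial markers summed to 24.9 CPM in injured and 121 CPM in uninjured cells. Barcodes with markers of other types numbered 11 injured and 9 uninjured, of which 7 and 5 had border macrophage markers. Without those barcodes the immunoproteasome share of catalytic UMIs, given below, stayed at 42.9% in injured and 53.6% in uninjured cells. Monocyte markers picked out 0 barcodes in both libraries, so this check could not bear on monocytes. Cells with Xist but no Y-linked UMI numbered 213 injured and 6 uninjured, and cells with Y-linked UMIs but no Xist 147 injured and 235 uninjured, so sex and injury are partly mixed. With 1 library per group there is no replicate check, and each interval below is an exact 95% interval that covers counting error only.

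Proteasome genes were higher as a group in injured cells. Of the 43 members, 37 had a ratio of injured over uninjured CPM above 1, against 41.1% of all measured genes. Their median log2 ratio was 0.31, and that of all measured genes −0.15. The differences were small: 5 members were at least 1.5-fold higher (Psmb6, Psma1, Psme2, Psmd14 and Psmc3ip), against 14.4% of all genes, and 1 was at least 1.5-fold lower (Psmd3), against 25.9%. None of the 43, a count of 0, reached 2-fold either way, where 7.22% of all genes were higher and 11.5% lower. The 1.5-fold counts depended on scaling: TMM scaling, which adds 0.148 to every log2 ratio, gave 11 higher and 0 lower, and DESeq2 size factors, which add 0.186, gave 16 and 0. Psmb6 passed 2-fold under both of these scalings, at log2 ratios of 1.09 and 1.12, as the only member to do so. With every cell thinned to 1500 UMIs, 2 were higher and 2 lower, and with the mean of per-cell CPM 1 and 1. Among genes with at least 100 UMIs, 35 of 41 members had a ratio above 1, against 45% of such genes, 4 were at least 1.5-fold higher, against 12.9%, and 1 was at least 1.5-fold lower, against 20.7%. None of those members, a count of 0, reached 2-fold, where 5.3% of such genes were higher and 7.68% lower.

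**Figure D1:**
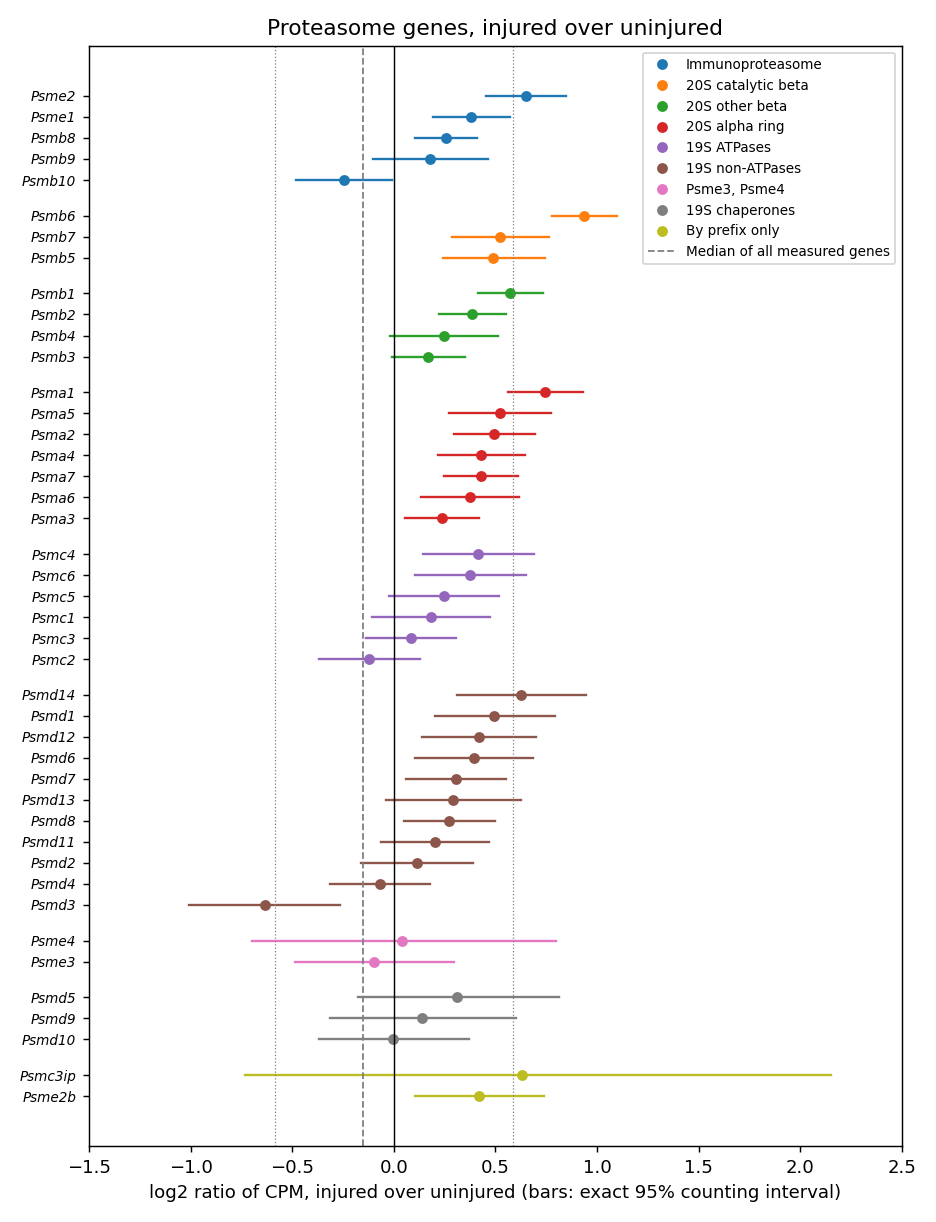
Log2 ratio of CPM (x axis), injured over uninjured, for the 43 proteasome genes by role (y axis), with bars for exact 95% counting intervals. The dashed line is the median of all measured genes (−0.15), the dotted lines mark 1.5-fold, and Psmb6 lies farthest right among subunits while Psmb10 is the immunoproteasome gene left of 0.

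The 31 constitutive genes summed to 4747 CPM in injured and 3627 CPM in uninjured cells, a log2 ratio of 0.39 (0.35 to 0.43). Their median ratio was 0.38, and 28 of 31 lay above 0. The sum was 0.24 after thinning and 0.24 by the mean of per-cell CPM, so a smaller difference remained when every cell weighed alike. The 5 immunoproteasome genes summed to 958 CPM in injured and 785 CPM in uninjured cells, a log2 ratio of 0.29 (0.20 to 0.38). Set against the constitutive sum, their log2 ratio of ratios was −0.10 (−0.20 to −0.003), which came to −0.02 after thinning and −0.01 by per-cell means, so the 2 sets could not be told apart when cells weighed alike.

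The catalytic immunoproteasome genes and the PA28 genes differed. Psmb8, Psmb9 and Psmb10 together had 514 CPM in injured and 473 CPM in uninjured cells, a log2 ratio of 0.12 (0.005 to 0.24). Psme1 and Psme2 had 444 CPM in injured and 312 CPM in uninjured cells, a log2 ratio of 0.51 (0.37 to 0.65). Against the constitutive sum the catalytic 3 had a log2 ratio of ratios of −0.27 (−0.39 to −0.14), and the PA28 pair one of 0.12 (−0.02 to 0.26).

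Psmb8, the interferon-induced chymotrypsin-like subunit, had 315 CPM in injured and 264 CPM in uninjured cells, a log2 ratio of 0.26 (0.10 to 0.41) that came to 0.01 after thinning. Psmb9, the counterpart of the caspase-like Psmb6, had 89.8 CPM in injured and 79.3 CPM in uninjured cells, a log2 ratio of 0.18 (−0.10 to 0.47), within counting error. Psmb10, the counterpart of the trypsin-like Psmb7, had 110 CPM in injured and 130 CPM in uninjured cells, a log2 ratio of −0.25 (−0.48 to −0.01). It was the one immunoproteasome gene lower in injured cells, by −0.10 with TMM scaling, −0.06 with DESeq2 size factors and −0.29 after thinning.

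Psme1 had 219 CPM in injured and 168 CPM in uninjured cells, a log2 ratio of 0.38 (0.19 to 0.57). Psme2 had 225 CPM in injured and 144 CPM in uninjured cells, a log2 ratio of 0.65 (0.45 to 0.85). The retrogene Psme2b (chr11:48945354-48946190, minus strand) shares sequence with Psme2, so reads could be split between them. Psme2b had 81.7 CPM in injured and 61.2 CPM in uninjured cells, and both genes together had 307 and 205 CPM, a log2 ratio of 0.58 (0.42 to 0.75). Psme3, whose product forms the nuclear activator PA28 gamma, had 43.3 CPM in injured and 46.3 CPM in uninjured cells, a log2 ratio of −0.10 (−0.49 to 0.29). Psme4, the activator PA200, had 13.2 CPM in injured and 12.9 CPM in uninjured cells, a log2 ratio of 0.04 (−0.70 to 0.80). The PA28 alpha and beta genes thus stood above Psme3 in their ratios, by a log2 ratio of ratios of 0.61 (0.19 to 1.02).

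Each constitutive catalytic gene had a larger ratio than its interferon-induced counterpart, though Psme2, at 0.65, stood above Psmb7 and Psmb5. Psmb6 had 405 CPM in injured and 212 CPM in uninjured cells, a log2 ratio of 0.94 (0.78 to 1.10), with 0.67 after thinning and 0.62 by per-cell means. It had the highest ratio of all 43 members, and stood 0.59 (0.43 to 0.76) above the other 30 constitutive genes on the log2 scale. Psmb7 had 148 CPM in injured and 103 CPM in uninjured cells, a log2 ratio of 0.52 (0.29 to 0.76) that came to 0.22 after thinning. Psmb5 had 133 CPM in injured and 94.6 CPM in uninjured cells, a log2 ratio of 0.49 (0.24 to 0.74). The 10 injured cells with the most Psmb6 UMIs held 10.0% of them, against 7.90% for the top 10 uninjured cells, so no small number of cells carried the value.

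**Figure D2:**
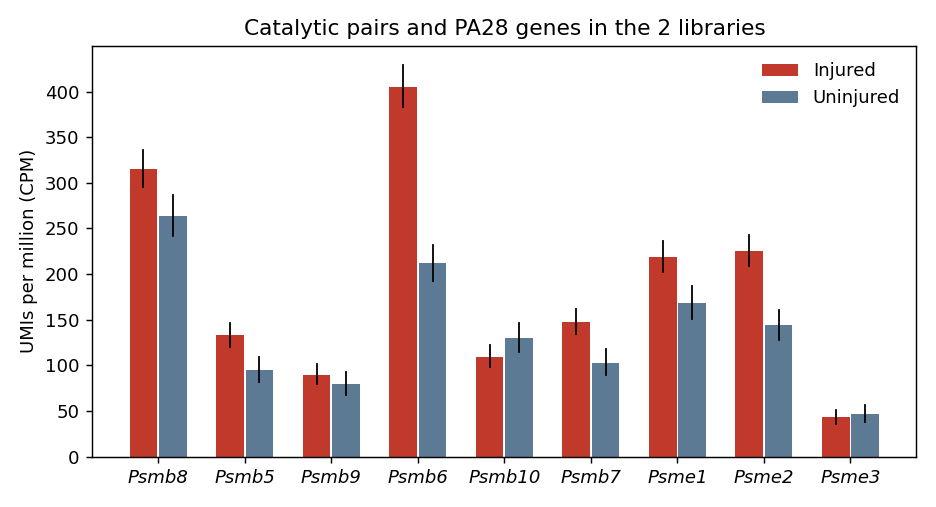
CPM (y axis) of the catalytic genes, each interferon-induced gene beside its constitutive counterpart, and of the PA28 genes, with exact Poisson 95% intervals. Injured bars are red and uninjured bars blue, and Psmb6 had 405 CPM in injured and 212 CPM in uninjured cells.

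The remaining core genes were higher throughout. All 14 constitutive 20S genes had a ratio above 1 (7 alpha ring, 4 structural beta and 3 catalytic), with a summed log2 ratio of 0.49 (0.44 to 0.55). Psma1, an alpha ring subunit, had 274 CPM in injured and 163 CPM in uninjured cells, a log2 ratio of 0.75 (0.56 to 0.93) that came to 0.37 after thinning. Psma2 had 209 CPM in injured and 148 CPM in uninjured cells (0.49), and Psma5 135 and 94.1 CPM (0.52). The Psma5 ratio came to 0.12 after thinning. The structural beta gene Psmb1 had 339 CPM in injured and 228 CPM in uninjured cells, a log2 ratio of 0.57 (0.41 to 0.73). The lowest core ratio was that of Psmb3, with 222 CPM in injured and 198 CPM in uninjured cells, 0.17 (−0.01 to 0.35), and it turned to −0.17 after thinning and −0.04 by per-cell means. So the count of 14 above 1 holds for summed UMIs, and Psmb3 falls out of it when cells weigh alike.

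Genes of the 19S cap had smaller ratios than those of the core. The 17 cap genes summed to 1718 CPM in injured and 1477 CPM in uninjured cells, a log2 ratio of 0.22 (0.15 to 0.28), and the core stood 0.28 (0.19 to 0.36) above them as a log2 ratio of ratios. Psmd14, the enzyme that removes ubiquitin chains at the cap, was highest, with 89.2 CPM in injured and 57.8 CPM in uninjured cells, 0.63 (0.31 to 0.95). Its log2 ratio came to 0.26 after thinning. Psmd3, a scaffold subunit of the lid, was lowest, with 38.8 CPM in injured and 60.2 CPM in uninjured cells, −0.63 (−1.01 to −0.26). Other low cap genes were the ATPase genes Psmc2 (102 CPM injured, 111 CPM uninjured, −0.12) and Psmc3 (139 CPM injured, 131 CPM uninjured, 0.08), and the ubiquitin receptor gene Psmd4 (109 CPM injured, 114 CPM uninjured, −0.07), each within counting error. The assembly chaperones Psmd5, Psmd9 and Psmd10 had log2 ratios of 0.31, 0.14 and −0.00, all within counting error.

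Within each catalytic pair, the interferon-induced gene took a smaller share of the pair's UMIs in injured cells. The shares compare libraries, not levels of 2 genes, since transcripts can differ in capture. Psmb9 made up 18.1% (16.2 to 20.2) of Psmb9 and Psmb6 UMIs in injured and 27.3% (23.8 to 31.0) in uninjured cells. Psmb10 made up 42.6% (39.1 to 46.1) of Psmb10 and Psmb7 UMIs in injured and 55.9% (51.3 to 60.3) in uninjured cells. Psmb8 made up 70.3% (67.9 to 72.7) of Psmb8 and Psmb5 UMIs in injured and 73.6% (70.3 to 76.7) in uninjured cells, and these intervals overlap. Over all 3 pairs the share was 42.9% (41.3 to 44.5) in injured and 53.6% (51.3 to 55.9) in uninjured cells, a log2 ratio of ratios of −0.62 (−0.79 to −0.46). After thinning it was 44.6% in injured and 54.2% in uninjured cells, and in cells with Y-linked UMIs alone 42.9% and 52.8%, so the difference was about as large within those cells. Psmb6 carried part of the difference. Over the Psmb8 and Psmb10 pairs alone, the share was 60.2% (58.1 to 62.3) in injured and 66.6% (63.9 to 69.2) in uninjured cells. The log2 ratio of ratios of those pairs was −0.40 (−0.61 to −0.18).

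**Figure D3:**
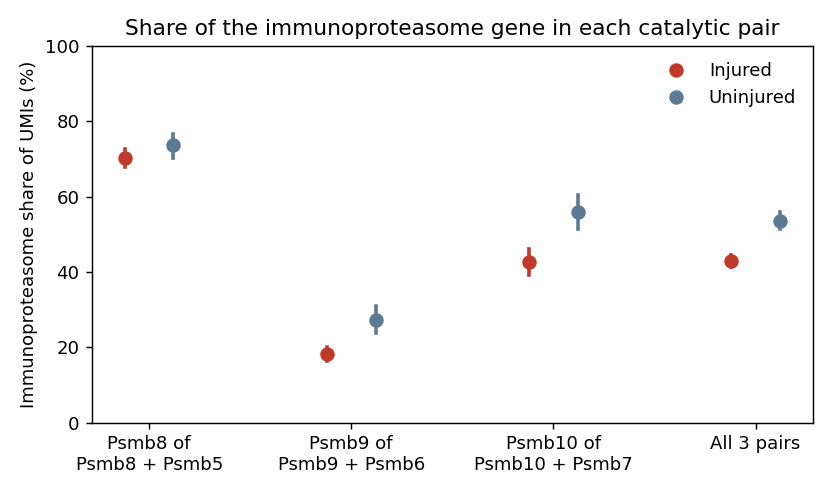
Share of UMIs (y axis, percent) from the interferon-induced gene in each catalytic pair and over all 3 pairs, with exact Clopper-Pearson 95% intervals. Injured points (red) lie below uninjured points (blue) in each pair, with 42.9% against 53.6% over all 3.

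The share differed with depth among injured cells. Injured cells ranked by total UMIs into 3 ranges of equal number had shares of 51.6% (47.0 to 56.2), 48.4% (45.1 to 51.7) and 38.9% (36.9 to 40.9) from the shallowest to the deepest, at median depths of 2870, 4405 and 8234.5 UMIs. Uninjured cells in the same kind of ranges had 52.2%, 53.7% and 54.2%, at median depths of 1684, 3004 and 4063 UMIs. The shallowest injured and the middle uninjured range, similar in depth, thus had overlapping intervals, and the share was lowest in the deepest injured cells. Constitutive genes summed to 3846, 4153 and 5330 CPM in the 3 injured ranges and to 3981, 3473 and 3597 CPM in the 3 uninjured ranges. Without the 9 injured cells that had over 3 times the median UMIs, the injured share was 43.4%. The part of depth in the injured result was not tested.

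A score of 18 damage-associated microglia genes, none of them a proteasome gene, divided the injured cells in the same direction. From the lowest to the highest range the share was 52.1% (48.3 to 56.0), 42.0% (39.5 to 44.6) and 39.7% (37.3 to 42.1) in injured cells, and 55.0%, 51.6% and 54.4% in uninjured cells. Median depth moved with the score, at 3338, 4671.5 and 6648 UMIs in the injured ranges, and its part was not tested. Psmb6 had 463 CPM in the highest and 230 CPM in the lowest injured range, a log2 ratio of 1.01 (0.75 to 1.27). Psmb7 had 138 CPM in the highest and 135 CPM in the lowest injured range, 0.04 (−0.33 to 0.41), and the intervals of these 2 constitutive catalytic genes did not overlap. Psmb5 had 0.28 (−0.12 to 0.70), and Psmb8, Psmb9 and Psmb10 together had −0.10 (−0.29 to 0.09). Among the catalytic genes, Psmb6 alone had an interval that excluded 0, so the lower share went mainly with Psmb6. Psme2 had 249 CPM in the highest and 169 CPM in the lowest injured range, 0.56 (0.25 to 0.88). Psme1 had 202 CPM in the highest and 253 CPM in the lowest injured range, −0.33 (−0.61 to −0.04), so the PA28 partners differed in sign here.

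**Figure D4:**
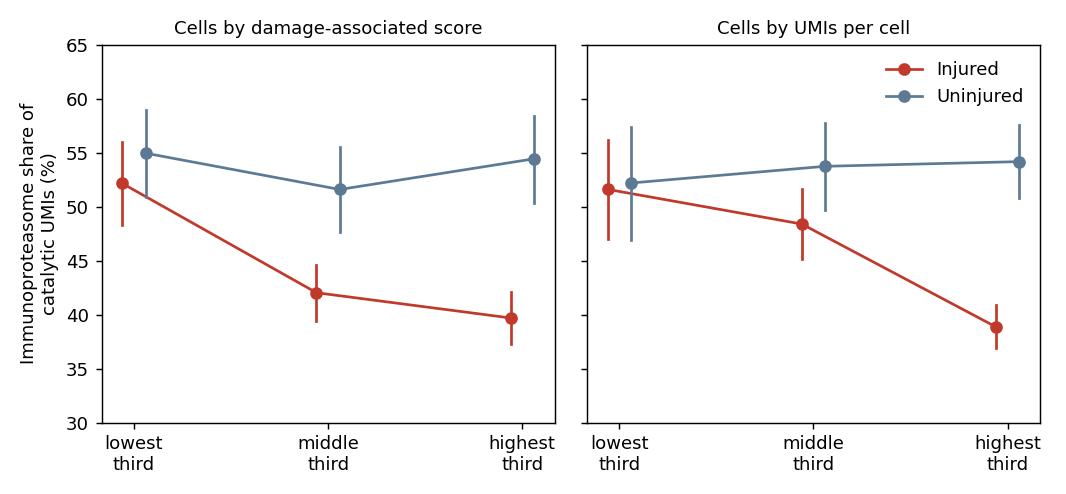
Interferon-induced share of catalytic UMIs (y axis, percent) in 3 ranges of cells by damage-associated score (left) and by UMIs per cell (right), with exact Clopper-Pearson 95% intervals. Injured shares (red) were 39.7% and 38.9% in the highest ranges, and uninjured shares (blue) lay between 51.6% and 55.0% throughout.

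The immunoproteasome genes were higher in injured cells with high interferon response scores. The score summed 28 interferon-induced genes, none of them a proteasome gene, and the top 10% of injured cells (58 cells) was set against the other 519. These are ranges of a score and not cell types, and 24 injured cells lay within 10% of the score at its edge. The 5 genes summed to 1498 CPM in the 58 high-scoring and 896 CPM in the other injured cells, a log2 ratio of 0.74 (0.60 to 0.88). The 31 constitutive genes had 4739 CPM in the high-scoring and 4747 CPM in the other cells, a log2 ratio of −0.00 (−0.08 to 0.07). After thinning the values were 1.00 (0.73 to 1.27) and 0.05 (−0.11 to 0.20), so the contrast did not shrink at equal depth.

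All 5 immunoproteasome genes had a ratio above 1 in the high-scoring injured cells, against 41.1% of genes with at least 20 injured UMIs, and 4 were at least 1.5-fold higher, against 12.9%. Psmb10 had 197 CPM in the high-scoring and 99.4 CPM in the other injured cells, a log2 ratio of 0.99 (0.57 to 1.39). Psmb8 had 528 CPM in the high-scoring and 290 CPM in the other injured cells, 0.86 (0.62 to 1.10). Psmb9 had 150 CPM in the high-scoring and 82.9 CPM in the other injured cells, 0.86 (0.38 to 1.31). Psme2 and Psme1 had smaller ratios, 0.62 (0.31 to 0.92) and 0.48 (0.15 to 0.80). Of the 31 constitutive genes, 14 had a ratio above 1, 0 were at least 1.5-fold higher and 1 was at least 1.5-fold lower, Psmd7 at −0.59 (−1.20 to −0.03), against 22.1% of all genes. The interferon-induced share of catalytic UMIs was 57.4% (52.9 to 61.8) in the high-scoring and 40.7% (39.0 to 42.4) in the other injured cells. In the uninjured library the 5 genes had 1025 CPM in the 70 highest-scoring and 760 CPM in the other cells, 0.43 (0.21 to 0.64), and the constitutive genes 0.22 (0.11 to 0.32). After thinning the uninjured values were 0.30 (−0.06 to 0.64) for the 5 genes and 0.13 (−0.03 to 0.30) for the constitutive genes. Both intervals include 0. By gene, Psme1 and Psme2 had 0.73 (0.28 to 1.16) and 0.79 (0.30 to 1.25) in the high-scoring uninjured cells, and the catalytic 3 together 0.18 (−0.12 to 0.48), within counting error. Scores were lower there: the score genes made up 1.57% of UMIs in the injured and 0.275% in the uninjured top range.

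Set against all uninjured cells, the catalytic 3 had a log2 ratio of 0.89 (0.69 to 1.08) in the high-scoring injured cells and −0.00 (−0.12 to 0.12) in the other injured cells. The 5 genes had 0.93 (0.78 to 1.08) in the high-scoring and 0.19 (0.10 to 0.28) in the other injured cells. So by CPM the catalytic 3 stood above uninjured cells in the high-scoring injured cells, and the interval in the other 519 included 0. With the library-wide shift of TMM (0.148) or DESeq2 size factors (0.186) added, the interval in those 519 would lie above 0.

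Constitutive genes were higher in injured cells with high cell division scores. The top 10% by that score (58 cells, of which 10 were also in the interferon range) had 6227 CPM of constitutive genes, against 4524 CPM in the other injured cells, a log2 ratio of 0.46 (0.40 to 0.52), and 0.49 (0.35 to 0.63) after thinning. Median depth was 7132.5 UMIs in the high-scoring and 4256 UMIs in the other injured cells. A ratio above 1 was found in 30 of 31 constitutive genes, against 55.3% of all genes; 9 were at least 1.5-fold higher, against 19.3%, and 0 at least 1.5-fold lower, against 16.4%. Psmd2, a cap subunit that receives substrates, had the highest ratio, 1.07 (0.66 to 1.47). Psmb7 and Psmb5 had 0.81 (0.47 to 1.14) and 0.73 (0.37 to 1.09). Immunoproteasome genes had 1008 CPM in the high-scoring and 951 CPM in the other injured cells, 0.08 (−0.07 to 0.24). Of these, the catalytic 3 together had 0.24 (0.04 to 0.44), which came to −0.01 (−0.52 to 0.47) after thinning. Psme1 and Psme2 had −0.16 and −0.07, each within counting error. In uninjured cells the constitutive genes had 3397 CPM in the high-scoring and 3650 CPM in the other cells, −0.10 (−0.22 to 0.01). Division scores were lower in that library: the score genes made up 0.533% of UMIs in the injured and 0.208% in the uninjured top range.

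**Figure D5:**
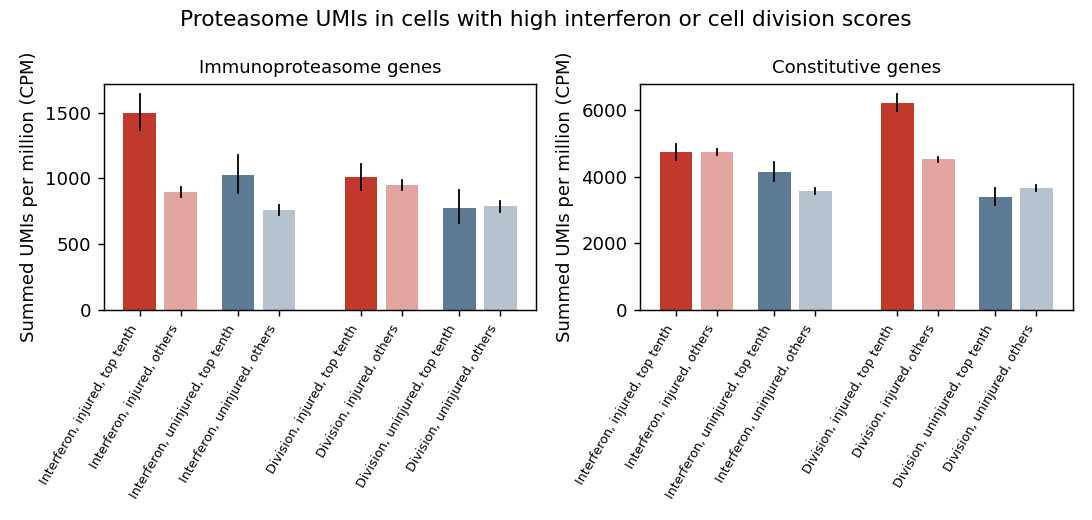
Summed CPM (y axis) of the 5 immunoproteasome genes (left) and the 31 constitutive genes (right) in the top 10% of cells by interferon or cell division score and in the other cells, with exact Poisson 95% intervals. The immunoproteasome genes reached 1498 CPM in the interferon-high injured cells (red), and the constitutive genes 6227 CPM in the division-high injured cells.

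Thinned to equal depth, single cells held a mean of 6.52 constitutive UMIs in injured and 5.52 in uninjured cells, over 567 and 604 cells that reached 1500 UMIs. A constitutive catalytic UMI was found in 56.8% (52.6 to 60.9) of thinned injured and 44.4% (40.4 to 48.4) of thinned uninjured cells. A catalytic immunoproteasome UMI was found in 48.9% (44.7 to 53.1) of thinned injured and 50.8% (46.8 to 54.9) of thinned uninjured cells, and these intervals overlap. Without thinning the same shares were 84.1% and 67.3% for the constitutive catalytic genes, and 84.4% and 68.9% for the immunoproteasome ones. No cell type lacks constitutive proteasomes, so no background share could be read from another type.

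Genes that build the core summed to 544 CPM in injured and 449 CPM in uninjured cells, a log2 ratio of 0.28 (0.16 to 0.39), below that of the core itself. All 5 assembly factors had a ratio above 1, against 41.1% of all measured genes, with 1 at least 1.5-fold higher, Psmg1 at 0.61 (0.01 to 1.24). Pomp, the maturation factor of the core, had 431 CPM in injured and 360 CPM in uninjured cells, 0.26 (0.13 to 0.39), and Psmg4 had 0.42. Ubb, a polyubiquitin gene, had 4201 CPM in injured and 5633 CPM in uninjured cells, −0.42 (−0.46 to −0.39). Of 16 receptor and regulator genes at the cap, 1 was at least 1.5-fold higher and 3 lower, neither share above that of all measured genes (14.4% higher, 25.9% lower). Shfm1, a small lid subunit outside the Psm prefixes, had 0.72 (0.57 to 0.86), and Ubqln4, a shuttle gene, −0.70 (−1.62 to 0.22), within counting error. In the list of ubiquitin activation genes, 4 of 9 were at least 1.5-fold higher and 1 lower, against the same 14.4% and 25.9%, led by Ube2c, a mitotic enzyme that is also in the cell division score, at 3.54, Ube2l6, which attaches the interferon-induced modifier Isg15, at 1.46, and Ube2k at 0.81.

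Genes known to regulate proteasome expression were mostly lower in injured cells, with 1 of 9 at least 1.5-fold higher and 5 lower, against 14.4% and 25.9% of all genes. Irf1, which drives immunoproteasome genes, had 43.9 CPM in injured and 146 CPM in uninjured cells, −1.73 (−2.03 to −1.43). Nfe2l1, which drives constitutive proteasome genes when proteasomes are inhibited, had 12.3 CPM in injured and 24.4 CPM in uninjured cells, −0.99 (−1.63 to −0.35). Stat3 had −0.81 (−1.04 to −0.58). Of 10 genes that transport peptides and load MHC class I, 7 had a ratio above 1, against 41.1% of all genes, with a median log2 ratio of 0.32 and a summed one of 0.45 (0.43 to 0.48). Past 1.5-fold the counts were near those of all genes (14.4% higher, 25.9% lower): 1 was higher, Tap1 at 0.69 (0.23 to 1.17), and 2 were lower, Tap2 at −0.65 (−0.95 to −0.35) and Tapbpl, a peptide editor, at −1.30 (−1.68 to −0.92). The overlap of Tap1 and Psmb9, given above, lies at the start of both genes by their strands. The libraries used 3′ chemistry, and any effect of the overlap on either count was not tested.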

How the data were processed

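The authors deposited unnormalised UMI counts for each gene and barcode for 2 libraries made with 10x 3′ version 2 chemistry, per the labels. The submitters' processing notes name Cell Ranger 2.0.1, STAR and Seurat 2.1.0, and the build GRCm38.p5 (mm10). Their order, the annotation and the use of strand were not given in the sources used here. Scatter gates excluded doublets, per the labels' protocols, and no doublet caller was run. Barcodes under 200 genes or over 10% mitochondrial UMIs were left out, which removed 3 injured and 10 uninjured barcodes. Counts were summed per library and scaled to CPM. A count of 0 was set to a floor of 3 counts per library. Ratios have exact intervals of 2 Poisson counts, and shares Clopper-Pearson intervals at 95%. No p-value was computed. Cell scores were the percent of a cell's UMIs from a gene list, and ranges of cells were formed within each library. Thinning left out 10 injured and 91 uninjured cells under 1500 UMIs. edgeR 4.0.16 (TMM) and DESeq2 1.42.0 gave scaling factors alone, and Python 3.11.15 with scipy 1.17.1 the rest. The steps were tested on simulated data.

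The members, lists and scores were chosen with earlier results of these data known. Values are given for the 5 immunoproteasome and 3 constitutive catalytic genes, Psme3, Psme4, the 5 highest and 5 lowest other members by the interval bound nearest 0, and up to 3 genes per pathway list with the largest ratio. A few pathway genes that this rule or a count would name are not reported here. The remaining members are given by counts, ranges or the plot of ratios.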

Additional observations from a re-analysis of the deposited data

How the results depend on the processing

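Over 96 alternative values for the comparisons, 69 were classed as unmoved, 27 as moved and 0 as changed in sign. Shares and member counts cannot change sign, so the last count is informative for the log2 values alone. Medians and member counts have no counting interval, so for them the classes do not measure counting error. The constitutive median, 0.38 as reported, was classed as unmoved at 0.21 thinned and 0.56 with DESeq2 factors. Of 200 values for single genes, 16 moved by more than counting error. No gene at least 1.5-fold apart as reported changed sign, but genes nearer 0 did: Psme4 came to −0.55 thinned and −1.02 in cells with Y-linked UMIs alone, Psmb3 to −0.17 thinned and −0.04 by per-cell means, and Psme3, Psmc2 and Psmd4 to values above 0 with TMM and DESeq2 factors. The summed immunoproteasome log2 ratio was 0.44 with TMM, 0.47 with DESeq2 factors and 0.12 for the catalytic 3. The constitutive sum was 0.54 with TMM, 0.57 with DESeq2 factors, 0.24 by per-cell means, 0.24 thinned, 0.31 without the top 10% by division score, 0.45 in cells with Y-linked UMIs alone and 0.35 without Psmb6. The immunoproteasome over constitutive value was −0.27 for the catalytic 3. The injured share of catalytic UMIs was 45.9% by per-cell means, 44.6% thinned and 40.7% without the top 10% by interferon score. Members at least 1.5-fold higher numbered 11 with TMM, 16 with DESeq2 factors, 1 by per-cell means, 2 thinned, 3 without the top 10% by division score and 9 in cells with Y-linked UMIs alone. Members at least 1.5-fold lower numbered 0 with TMM, 0 with DESeq2 factors, 2 thinned, 3 with no gene minimum and 0 without the top 10% by interferon score. The interferon-high value was 0.99 with cells ranked again after thinning and 1.00 thinned within the ranges set before. It was 0.89 for the catalytic 3. The causes were not tested. Adding Psme2b to the immunoproteasome genes and leaving out Psmb6 were chosen after seeing the data. No paired analysis was possible because each group has 1 library and the labels give no replicate numbers. Depth limits the rarest members, such as Psmc3ip and Psme4, whose intervals span more than a 2-fold range.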
